A study of Mus musculus with 6 samples.

Results

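The 9 genes described here encode successive steps of adrenergic signalling in the heart: the receptors Adrb1, Adra1a and Adra1b, the adenylyl cyclases Adcy5 and Adcy6, the protein kinase A catalytic subunit Prkaca, and the phosphodiesterases Pde3a, Pde4b and Pde4d. They are 9 of the 54929 rows of the deposited count table, chosen by symbol and with earlier results of these data known. All 9 passed the filter on low counts that left 14807 genes to test. Their transcripts were measured by mRNA sequencing in the left ventricle of wild-type (WT) C57BL/6 mice that had undergone TAC (transverse aortic constriction), in which a tie around the aorta loads the left ventricle with high pressure. All 6 libraries came from operated mice, so every comparison is between antibodies within pressure overload and no unoperated heart was compared. In 1 group of 3 libraries the mice had received an anti-IgG control antibody. The other group of 3 had received anti-PD-1, which blocks a receptor that restrains T cells once they are activated. Both antibodies were given at 10 mg/kg into the peritoneum at intervals of 3 days from day 14 after surgery, and each sample carries a time label of 5 weeks. Separate animals are not named for the libraries, and the p-values therefore refer to the variation among these samples alone, which may be technical.

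Noradrenaline and adrenaline act on heart muscle cells mainly through the beta-1 receptor, which couples to the stimulatory G protein and turns on adenylyl cyclase. The cyclic AMP that is made activates protein kinase A, which phosphorylates calcium channels, the ryanodine receptor, phospholamban and troponin I and so strengthens and speeds the beat. Phosphodiesterases break cyclic AMP down again, each in its own compartment of the cell, and alpha-1 receptors act on a separate branch through Gq and phospholipase C. Long-lasting adrenergic drive under pressure overload is known to desensitise this pathway, with loss of beta-1 receptors and a rise of receptor kinases.

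Summed counts were 18063344 to 21093163 per library. Across all genes, edgeR's quasi-likelihood test called 21.1% of the 14807 tested genes different between the antibodies at an adjusted p under 0.05, with 10.3% higher and 10.8% lower with anti-PD-1. The calls depended on gene length. When genes were split into 10 deciles by their deposited length, 30.5% of the longest decile rose and 1.01% fell. Of the shortest decile 2.09% rose and 32.0% fell. Of decile 3, counted from the shortest, in which Adrb1 and Prkaca stand, 2.70% rose and 14.4% fell. Another scaling of the libraries, by the upper quartile, moved the median log2 fold change of all genes from -0.03 to -0.12 and the share of calls that were higher from 48.9% to 36.8% of 3200. When each library's trend of expression on coding and 3' UTR length was taken out, 2.96% of genes were higher and 2.71% lower, and when the trend on the deposited gene length was taken out, 5.17% were higher and 5.13% lower. Both corrected values are given beside the members' own, because 6 of the 9 genes stand in deciles 8 to 10. The part of length in the results was not tested further.

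The labelled tissue had the transcripts of ventricular muscle. The summed level of 10 ventricular cardiomyocyte markers was 36173 to 43603 CPM (read counts scaled to the size of the library) with anti-IgG. With anti-PD-1 it was 23130 to 39742 CPM. Ryr2 rose, Myl2, Tnnt2 and Tnni3 fell, and none of the 10 was under 1 CPM. With the gene length trend removed all of these changes but that of Tnni3 still passed. With the coding and 3' UTR trend removed none did (edgeR adjusted p = 0.102, 0.0729, 0.177 and 0.195), and Ttn was lower (edgeR adjusted p = 0.0280). Of 8 atrial markers 4, with Myl7, Sln and Bmp10 among them, were under 1 CPM in all 6 libraries, 0 changed, and the rest, such as Tbx5 at 6.93 to 11.9 CPM, were measured in both groups. Of 8 markers of sympathetic and cardiac neurons, 7 were under 1 CPM in every library. The other, Dbh, which encodes the enzyme that makes noradrenaline, fell from 1.28 ± 0.704 to 0.210 ± 0.237 CPM (SD, n = 3 each; edgeR adjusted p = 0.0349), on 1 to 37 reads per library. Dbh did not pass with either length trend removed (edgeR adjusted p = 0.0661 and 0.0822), and the nerve supply itself was not measured. Summed lymphocyte markers were 7.27 to 10.8 CPM with anti-IgG and 2.25 to 3.22 CPM with anti-PD-1. Of the 5 tested 4 fell, beside 10.8% of all tested genes. With either length trend removed only Cd79a still passed (edgeR adjusted p = 0.0347 and 0.0411), on 0 to 52 reads per library. Fibroblast markers summed to 2650 to 3585 and 2758 to 4045 CPM, with 0 of 8 changed, and endothelial markers to 1572 to 1680 and 1370 to 1681 CPM, with 1 of 8 up and 1 down. Smooth muscle and pericyte markers summed to 1842 to 2126 CPM with anti-IgG and 1994 to 2366 CPM with anti-PD-1, with 1 of 8, Kcnj8, lower. Of the macrophage markers Adgre1 rose and C1qa fell, of the Schwann cell markers Sox10 fell, and of the erythroid markers Slc4a1 rose. With the coding and 3' UTR trend removed Adgre1 and the endothelial Egfl7 and Vwf still passed. Under the same correction C1qa, Sox10, Slc4a1 and Kcnj8 did not. The part of these cell types in the results below was not tested, and in bulk tissue fewer cells of a type and less RNA per cell cannot be told apart.

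Promoter windows from RefSeq (build GRCm38.p6), reaching from 250 bases before to 50 bases after an annotated start, were at hand for 6 of the 9 genes, in 11 windows. A single window each is shown for Adcy5 and Pde4d, which rose, and for Adrb1 and Prkaca, which did not pass the test and whose windows hold motifs. They were searched on both strands for the cyclic AMP response element TGACGTCA, for its shorter core TGACG, which reads CGTCA on the other strand and which every full element also holds, and for the E-box motif with the letters CACGTG. Capitals mark the matches, and each sequence is the strand of the gene, written 5' to 3'. The Adcy5 window is chr16:35154614-35154913, the Pde4d window chr13:108653927-108654226, the Adrb1 window chr19:56721867-56722166 and the Prkaca window chr8:83972728-83973027, all on the plus strand.
Adcy5: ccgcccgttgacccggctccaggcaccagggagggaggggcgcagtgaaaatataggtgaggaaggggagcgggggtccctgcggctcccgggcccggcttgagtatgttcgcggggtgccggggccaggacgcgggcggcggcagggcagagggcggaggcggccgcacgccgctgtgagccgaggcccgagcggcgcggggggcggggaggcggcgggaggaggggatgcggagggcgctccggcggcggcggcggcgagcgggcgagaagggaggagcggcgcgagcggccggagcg
Pde4d: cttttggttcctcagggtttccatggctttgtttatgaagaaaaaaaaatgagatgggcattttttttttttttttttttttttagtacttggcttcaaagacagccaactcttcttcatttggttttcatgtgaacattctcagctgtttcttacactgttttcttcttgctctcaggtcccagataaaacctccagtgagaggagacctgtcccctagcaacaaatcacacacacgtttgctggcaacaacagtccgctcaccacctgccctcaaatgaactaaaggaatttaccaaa
Adrb1: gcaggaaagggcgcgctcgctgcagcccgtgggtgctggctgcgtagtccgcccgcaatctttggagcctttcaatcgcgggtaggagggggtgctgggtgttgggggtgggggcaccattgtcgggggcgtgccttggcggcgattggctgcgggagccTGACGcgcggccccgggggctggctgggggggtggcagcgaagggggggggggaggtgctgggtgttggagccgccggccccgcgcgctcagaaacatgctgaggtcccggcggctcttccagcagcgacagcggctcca
Prkaca: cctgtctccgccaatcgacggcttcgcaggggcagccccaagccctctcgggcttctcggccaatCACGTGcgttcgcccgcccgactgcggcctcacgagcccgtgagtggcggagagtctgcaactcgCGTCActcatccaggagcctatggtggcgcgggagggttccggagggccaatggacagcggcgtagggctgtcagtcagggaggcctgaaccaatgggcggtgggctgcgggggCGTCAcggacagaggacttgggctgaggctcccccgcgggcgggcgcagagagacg

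The full element was in 0 of the 11 windows and in 1.79% of all 32851 promoter windows in the table. The core was in 3 of the 11 and in 20.8% of all, and the E-box in 1 of the 11 and in 7.15% of all. Both Adcy5 and Pde4d lacked all of these motifs in the windows shown, the Adrb1 window held 1 core, and the Prkaca window held 2 cores and the E-box. Both windows of Adra1b, 3 of the 4 of Pde4b and a second Prkaca window, at chr8:83976633-83976932 with 51.3% G and C, held none, and these 3 genes did not pass the test either. Base composition set the windows apart: G and C made up 79.0% of the Adcy5 window, 72.3% of the Adrb1 window and 69.7% of the Prkaca window, but 39.7% of the Pde4d window, against a median of 52.7% over all windows. Pde4d has many starts, and the window shown lies inside its annotated span, so it stands for 1 start only.

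Per length, Prkaca was by far the most abundant of the 9 transcripts. Its deposited FPKM (fragments per kilobase of gene, scaled for depth) averaged 49.5 over the 6 libraries and ranged from 42.3 to 60.0. Adcy6 followed with a mean FPKM of 13.8 (8.74 to 21.4), Adcy5 with 11.1 (5.30 to 18.3), Adrb1 with 7.20 (4.82 to 9.22) and Pde3a with 6.79 (3.76 to 9.51). The lower end held Adra1b with a mean FPKM of 3.86 (3.19 to 4.94), Pde4b with 3.27 (2.44 to 4.16), Pde4d with 1.00 (0.562 to 1.62) and Adra1a with 0.759 (0.268 to 2.38). Of the 8 neighbouring pairs in that order, Prkaca and Adcy6, and Pde4b and Pde4d, had ranges that did not overlap, and the other 6 pairs overlapped. The order of Adrb1 and Pde3a differed between the groups, with mean FPKM of 6.06 and 5.07 with anti-IgG and of 8.35 and 8.50 with anti-PD-1. The deposited lengths of Pde4b, Pde4d and Adra1a far exceed a coding transcript, with 12006 bp for Pde4d against 1752 bp coding and 2120 bp of 3' UTR. For Adra1a it is 8728 bp against 1398 bp coding and 2024 bp of 3' UTR. That of Adrb1, 2491 bp, is below its coding plus 3' UTR length of 2779 bp. When CPM were divided by coding plus 3' UTR length instead, Pde4b moved from place 7 to place 4, Adrb1 to place 6 and Adra1b to place 7, and the other 6 genes kept their places.

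**Figure D1:**
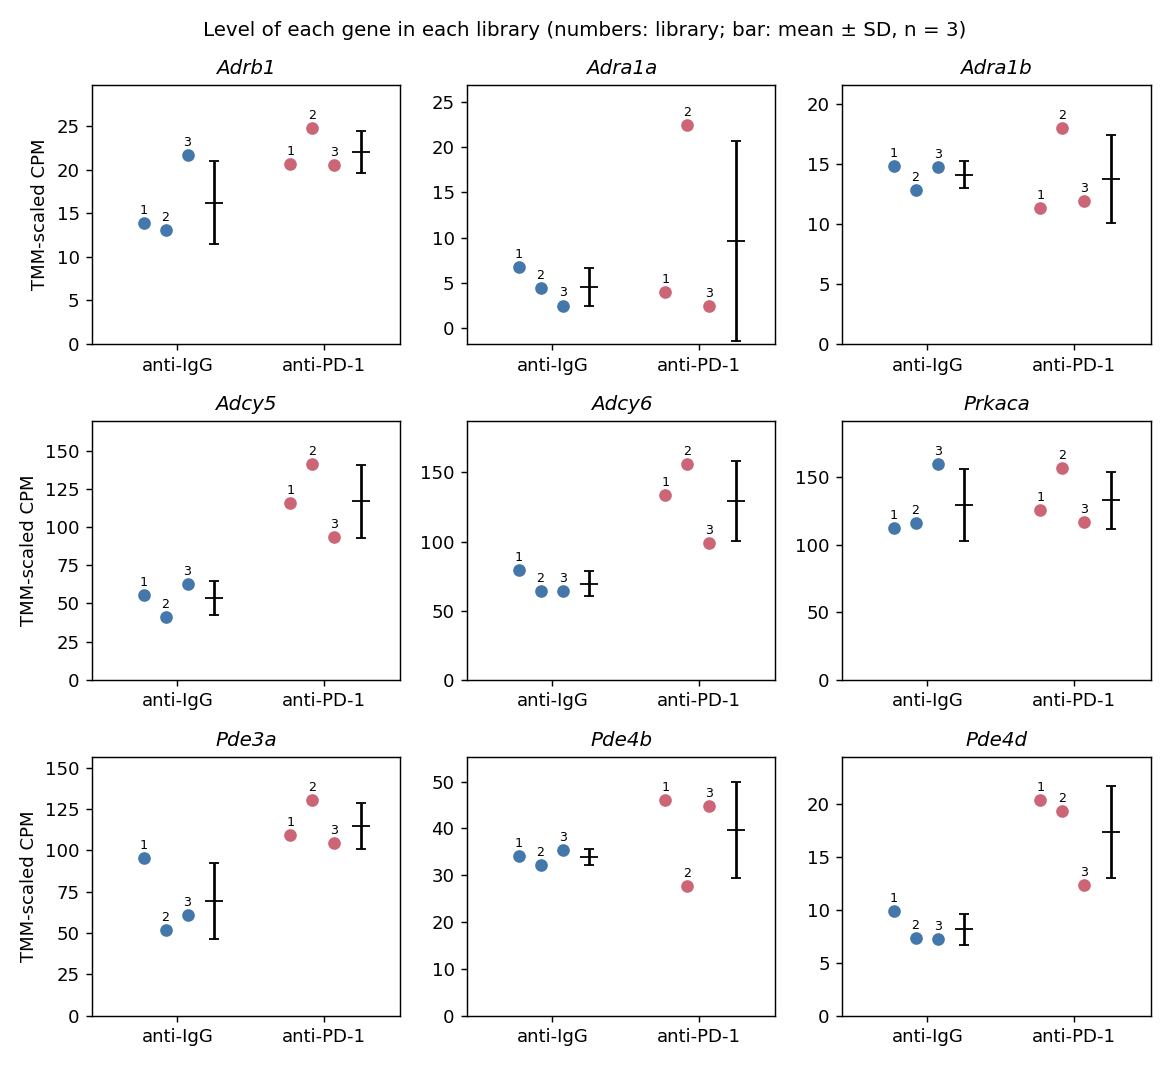
Expression of the 9 genes in CPM (vertical axes, 1 scale per gene) for the 3 anti-IgG and the 3 anti-PD-1 libraries; numbers beside the points are library numbers, and bars are the mean ± SD of each group. Adcy5, Adcy6, Pde3a and Pde4d have no overlap between the groups, and 1 anti-PD-1 library stands far above the other 5 for Adra1a.

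With anti-PD-1, 4 of the 9 genes rose (Adcy5, Adcy6, Pde3a and Pde4d), 0 fell and 5 did not pass the test, against 10.3% higher among all tested genes. The median log2 fold change of the 9 was 0.73, and that of all tested genes was -0.03. Because the 9 were chosen with earlier results of these data known, this contrast is a description and not a test. The same 4 genes had all 3 anti-PD-1 CPM values above all 3 anti-IgG values, as did 20.2% of all tested genes. Both cyclases rose, both alpha-1 receptors and the beta-1 receptor did not pass, and of the 3 phosphodiesterases Pde3a and Pde4d passed.

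Adrb1 encodes the beta-1 adrenergic receptor, the main receptor for noradrenaline on ventricular muscle. It lies at chr19:56722372-56724862 on the plus strand (mm10) and has a deposited length of 2491 bp. Its level was 13.9, 13.03 and 21.7 CPM in anti-IgG libraries 1 to 3 and 20.7, 24.8 and 20.6 CPM in anti-PD-1 libraries 1 to 3. Anti-IgG library 3 stood among the anti-PD-1 values, so the groups overlapped. The means were 16.2 ± 4.77 and 22.003 ± 2.39 CPM (SD, n = 3 each), a log2 difference of 0.44 with an SE of 0.23 that did not pass the test (edgeR adjusted p = 0.182). With the gene length trend removed the value was 0.75 and passed (edgeR adjusted p = 0.0470), since genes as short as Adrb1 had a median of -0.34. With the coding and 3' UTR trend removed it was 0.39 and did not pass (edgeR adjusted p = 0.291).

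The alpha-1 receptors drive the Gq branch. Adra1a, at chr14:66635251-66771168 on the plus strand, was the least abundant member and the least even, with 131, 80 and 50 reads in the anti-IgG libraries and 81, 418 and 51 in the anti-PD-1 libraries. These are 6.71, 4.47 and 2.50 CPM against 4.04, 22.4 and 2.45 CPM. Anti-PD-1 library 2 alone was high, and the other anti-PD-1 libraries lay within or just under the anti-IgG range. The log2 difference of 1.07 had an SE of 0.84 (edgeR adjusted p = 0.395), and without that library it turned to -0.47. With all libraries it was 0.79 with the gene length trend removed and 0.92 with the coding and 3' UTR trend removed. Neither passed (edgeR adjusted p = 0.600 and 0.584). Adra1b, at chr11:43774606-43901210 on the minus strand, had 14.9, 12.8 and 14.7 CPM with anti-IgG and 11.3, 18.0 and 11.96 CPM with anti-PD-1, and again anti-PD-1 library 2 was the highest. Its means of 14.1 ± 1.14 and 13.8 ± 3.69 CPM (SD, n = 3 each) gave a log2 difference of -0.04 with an SE of 0.23 (edgeR adjusted p = 0.919). The value was 0.07 with the gene length trend removed and -0.08 with the coding and 3' UTR trend removed (edgeR adjusted p = 0.868 and 0.857).

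Adcy5 and Adcy6 are the 2 calcium-inhibited cyclases that make most of the cyclic AMP of heart muscle, and both rose. Adcy5, at chr16:35154877-35305738 on the plus strand, had 55.8, 41.3 and 63.0 CPM with anti-IgG and 116, 141 and 93.5 CPM with anti-PD-1. Every anti-PD-1 value was above the highest anti-IgG value. The means were 53.4 ± 11.03 and 117 ± 24.0 CPM (SD, n = 3 each), 2.19-fold higher with anti-PD-1, with a log2 fold change of 1.13, an SE of 0.22 and an edgeR adjusted p = 0.00883. Adcy6, at chr15:98589973-98610076 on the minus strand, had 79.8, 64.4 and 64.2 CPM with anti-IgG and 133, 156 and 98.8 CPM with anti-PD-1. Its groups were apart as well, with means of 69.5 ± 8.91 and 129 ± 28.9 CPM (SD, n = 3 each), a 1.86-fold rise with a log2 fold change of 0.90 and an SE of 0.21 (edgeR adjusted p = 0.0155). In both genes the order of the anti-PD-1 libraries was the same, with library 2 highest and library 3 lowest.

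Adcy6 was the more abundant of the pair in all 6 libraries. The ratio of Adcy5 to Adcy6 FPKM was 0.661, 0.606 and 0.926 with anti-IgG and 0.820, 0.855 and 0.894 with anti-PD-1, so the groups overlapped and the balance of the pair was not told apart from the spread. With the gene length trend removed both cyclases still passed, with log2 values of 0.90 for Adcy5 and 0.70 for Adcy6 (edgeR adjusted p = 0.0284 and 0.0452). With the coding and 3' UTR trend removed neither passed, with 0.60 for Adcy5 and 0.35 for Adcy6 (edgeR adjusted p = 0.113 and 0.278). Both stand in decile 9 of genes by coding plus 3' UTR length, in which 25.4% rose.

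Prkaca, at chr8:83972993-83996443 on the plus strand, encodes the catalytic subunit alpha of protein kinase A, the enzyme that cyclic AMP releases. Its level was 112, 116 and 160 CPM with anti-IgG and 126, 157 and 117 CPM with anti-PD-1. The anti-PD-1 values all lay inside the anti-IgG range. Means were 129 ± 26.4 and 133 ± 21.1 CPM (SD, n = 3 each), and the log2 difference was 0.04 with an SE of 0.21 (edgeR adjusted p = 0.912). With the gene length trend removed it was 0.35, and with the coding and 3' UTR trend removed 0.18, neither past the test (edgeR adjusted p = 0.254 and 0.601).

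Among the phosphodiesterases, Pde3a encodes the enzyme that cyclic GMP inhibits and that drugs such as milrinone block. It lies at chr6:141249269-141507448 on the plus strand. It had 95.2, 52.0 and 60.7 CPM with anti-IgG and 109, 131 and 104 CPM with anti-PD-1. The groups did not overlap, but anti-IgG library 1 came close to the anti-PD-1 values. The means of 69.3 ± 22.8 and 115 ± 14.0 CPM (SD, n = 3 each) gave a 1.65-fold rise, a log2 fold change of 0.73 with an SE of 0.23, just inside the threshold (edgeR adjusted p = 0.0471). With the gene length trend removed it was 0.32, and with the coding and 3' UTR trend removed it was -0.05 (edgeR adjusted p = 0.329 and 0.907). Its 12737 bp put it in the longest decile of genes on both measures, and 38.8% of the decile with the longest coding plus 3' UTR rose. The antisense gene Gm28523, which overlaps its first bases, had 96 reads over the 6 libraries, and whether counting used strand is not stated.

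The other phosphodiesterases belong to the PDE4 family, which is specific for cyclic AMP. Pde4d, at chr13:108449948-109953461 on the plus strand, encodes an enzyme known from complexes at the ryanodine receptor and the calcium pump of the sarcoplasmic reticulum. It had 9.89, 7.33 and 7.26 CPM with anti-IgG and 20.4, 19.3 and 12.3 CPM with anti-PD-1. All anti-PD-1 values were above all anti-IgG values, with means of 8.16 ± 1.497 and 17.4 ± 4.39 CPM (SD, n = 3 each). The rise was 2.13-fold, a log2 fold change of 1.09 with an SE of 0.25 (edgeR adjusted p = 0.0149). It was 0.69 with the gene length trend removed and 0.83 with the coding and 3' UTR trend removed, neither past the test (edgeR adjusted p = 0.0765 and 0.0582). The pseudogene Rps3a3 lies within Pde4d on the same strand and had 14 to 54 reads per library, against 131 to 410 for Pde4d.

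Pde4b, at chr4:102087543-102607259 on the plus strand, encodes an enzyme that acts near the L-type calcium channel. It had 34.2, 32.2 and 35.4 CPM with anti-IgG and 46.1, 27.8 and 44.9 CPM with anti-PD-1. Here anti-PD-1 library 2 was the lowest of the 6, and the other anti-PD-1 libraries were the highest. The means of 33.9 ± 1.63 and 39.6 ± 10.3 CPM (SD, n = 3 each) differed by 0.22 on the log2 scale with an SE of 0.21 (edgeR adjusted p = 0.466), and the value was -0.16 and -0.08 with the 2 length trends removed. The ratio of Pde4b to Pde4d FPKM was 3.93, 4.99 and 5.54 with anti-IgG and 2.57, 1.63 and 4.13 with anti-PD-1. The ratio was lowest in anti-PD-1 libraries 1 and 2, and library 3 fell inside the anti-IgG range, so the groups overlapped.

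**Figure D2:**
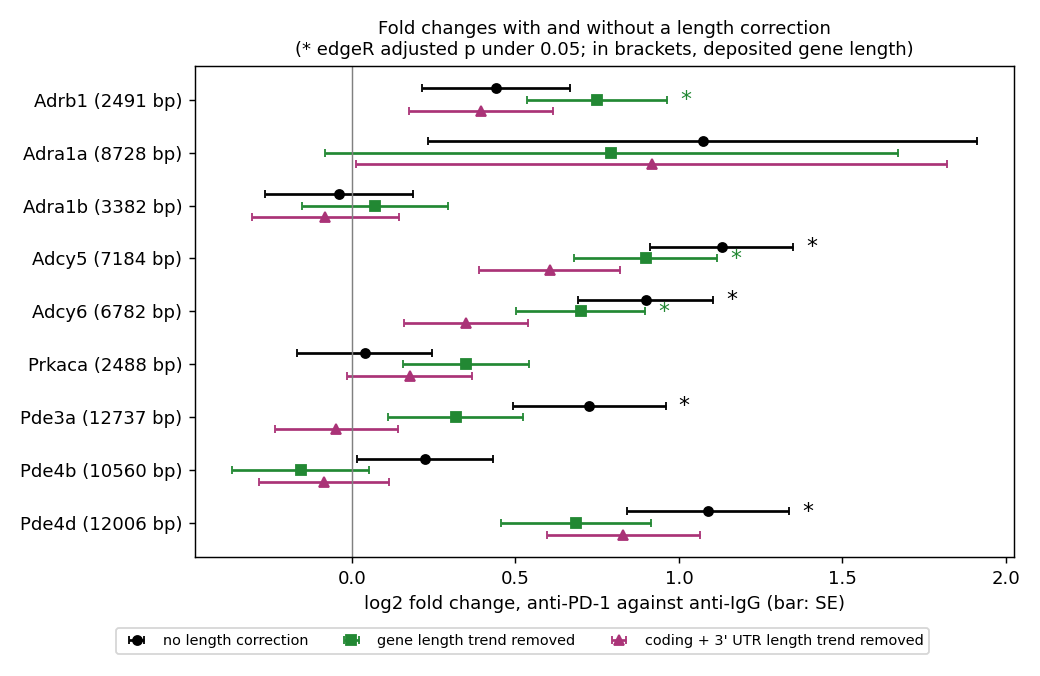
Log2 fold change of anti-PD-1 against anti-IgG for each of the 9 genes (horizontal axis; bars are the SE), without a length correction and with each of 2 length trends removed; the asterisk marks an edgeR adjusted p under 0.05. Of the 9, 4 genes pass without a correction, 3 with the gene length trend removed (Adrb1, Adcy5 and Adcy6) and 0 with the coding and 3' UTR trend removed. Among all tested genes 10.3%, 5.17% and 2.96% were higher, in the same order.

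Length removal changed which of the 9 genes were called. With the gene length trend removed 3 rose, Adrb1, Adcy5 and Adcy6, beside 5.17% of all tested genes. The median log2 fold change of the 9 was then 0.69. With the coding and 3' UTR trend removed 0 rose and 0 fell, beside 2.96% and 2.71% of all tested genes, with a median of 0.35. At such shares 0 of 9 does not set the members apart from other genes. The 2 measures rank some of the genes far apart. Pde4b and Pde4d are in the longest decile by deposited length and in decile 7 by coding plus 3' UTR length, and Adra1a is in deciles 9 and 6.

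The calls also rested on few libraries. This held for the whole table too, since most of the 3118 calls over all tested genes were lost without anti-IgG library 2. Adcy5 passed in 5 of the 6 fits that each left out 1 library, with a log2 range of 0.96 to 1.28, and not without anti-IgG library 2 (edgeR adjusted p = 0.0515). Adcy6 and Pde4d each passed in 3 of 6, with log2 ranges of 0.76 to 1.07 and 0.96 to 1.29. Both were lost without anti-IgG library 2, without anti-IgG library 3 or without anti-PD-1 library 1, and the highest edgeR adjusted p was 0.0778 for each. Pde3a passed only without anti-IgG library 1, with a log2 range of 0.54 to 1.03 and edgeR adjusted p up to 0.193 in the others. Every one of these values was positive in every such fit.

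Some of the 9 genes varied alike from library to library. As a description over 6 libraries that share their scaling and groups, Pearson's r of log2 CPM was 0.98 between Adcy6 and Pde4d, and 0.92 after each group's mean was taken out. It was 0.94 between Adcy5 and Adcy6, and 0.68 within groups. Adrb1 and Prkaca had an r of 0.75, and 0.93 within groups, while Adra1b and Pde4b ran opposite, with -0.87 and -0.89. Each member was also compared with the tested genes of sufficient level, leaving out unnamed, mitochondrially encoded, predicted and clone-type symbols. Of these, the gene with the highest Pearson's r over the same 6 libraries was Kdm4a for Adcy5 (0.999), Dennd4b for Adcy6 (0.996), Slc36a1 for Pde4d (0.997) and Pnpla8 for Pde3a (0.997). It was Aph1a for Adrb1 (0.997), Tppp for Adra1a (0.995), Rab12 for Adra1b (0.989), Pip5k1c for Prkaca (0.995) and Galnt4 for Pde4b (0.997). Such patterns were common for the genes that rose, since 343 genes had an r over 0.95 with Adcy5, 384 with Adcy6, 288 with Pde3a and 426 with Pde4d, out of 11409 compared. For the other 5 members 17 to 48 genes did.

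The rest of the pathway was read from 10 lists of 122 genes, 115 of them tested. With anti-PD-1 27 rose, 7 fell and 81 did not pass, with a median log2 fold change of 0.33, and 4 of the 27 were members; over all tested genes 10.3% rose and 10.8% fell. With the members left out, 23 of 106 rose and 7 fell, with a median of 0.31. After the gene length trend was removed, 13 of the 115 rose and 5 fell, beside 5.17% and 5.13% of all tested genes, with a median of 0.15. After the coding and 3' UTR trend was removed, 4 of the 115 rose and 3 fell, beside 2.96% and 2.71% of all tested genes. The lists were also chosen with earlier results of these data known, and they were described by their counts and not tested as sets. The naming rule picked 20 pathway genes beside the members that passed, and 6 of them (Adcy1, Adcy9, Prkar2a, Akap13, Ryr2 and Ppp1r3a) passed whichever library was left out. Without anti-IgG library 2, 13 lost the call, and only Pkig, beside those 6, did not; without anti-PD-1 library 1, 9 did, and without anti-IgG library 3, 5 did. Without anti-PD-1 libraries 2 or 3, 1 and 4 did. Most of the 3118 calls over all tested genes were also lost without anti-IgG library 2, so such losses were not particular to these genes.

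At the receptors, 0 of 7 tested adrenergic receptor genes passed in either direction, beside 21.1% of all tested genes. Their median log2 fold change was 0.44. Of the alpha-2 receptors, Adra2b differed by 1.02 and Adra2c by -0.58 on the log2 scale (edgeR adjusted p = 0.115 and 0.420). By deposited length Adrb1 was the most abundant receptor in all 6 libraries, at 35.5% to 51.1% of the summed receptor FPKM, but per coding plus 3' UTR length Adra1b was above it in anti-IgG library 1. Among 10 kinases, arrestins and RGS proteins, which end receptor signalling, 1 rose and 1 fell. These counts are near the 10.3% and 10.8% of all tested genes. Arrb1, which binds phosphorylated receptors, rose from 35.1 ± 4.91 to 60.2 ± 9.48 CPM (SD, n = 3 each; edgeR adjusted p = 0.0178), and its relative Arrb2 fell from 13.6 ± 5.58 to 6.85 ± 1.27 CPM (edgeR adjusted p = 0.0441). Both lost the call with either length trend removed. The groups of Arrb2 overlapped, and it lost the call in 5 of the 6 fits that left out a library (edgeR adjusted p up to 0.204). The receptor kinase gene Grk5 differed by 0.60 and lay just outside the threshold (edgeR adjusted p = 0.05001). It passed in 7 of the other settings, but with the coding and 3' UTR trend removed it was 0.13 (edgeR adjusted p = 0.742).

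Of 10 G protein alpha subunits 2 rose, beside 10.3% of all tested genes, and their median was 0.51. Gnaq, which couples the alpha-1 receptors to phospholipase C, rose from 32.0 ± 5.97 to 52.5 ± 5.43 CPM (SD, n = 3 each; log2 fold change 0.71, edgeR adjusted p = 0.0237), and Gna13 rose by 1.02 on the log2 scale (edgeR adjusted p = 0.0113). Gnao1 differed by 0.50 and did not pass (edgeR adjusted p = 0.0646). Among the effectors of the alpha-1 branch 1 of 13 rose and 1 fell, beside 10.3% and 10.8% of all tested genes. Plce1, phospholipase C epsilon, rose by 0.84 (edgeR adjusted p = 0.00890), and Dgkz, a diacylglycerol kinase that ends the lipid signal, changed by -0.61 (edgeR adjusted p = 0.0240). Itpr1, an inositol trisphosphate receptor, differed by 0.61 and did not pass (edgeR adjusted p = 0.0666). Dgkz still passed with the coding and 3' UTR trend removed, at -0.68 (edgeR adjusted p = 0.0309), and Gnaq and Plce1 did not, at 0.41 and 0.05 (edgeR adjusted p = 0.157 and 0.890).

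Of the 7 tested cyclases 4 rose and 0 fell, beside 10.3% and 10.8% of all tested genes. Their median, 0.90, was the highest of the 10 lists without a length correction. With the gene length trend removed it was 0.70, below the 0.75 of the receptors. With the coding and 3' UTR trend removed it was 0.53, again the highest, and the receptors had 0.39. Besides Adcy5 and Adcy6 these were Adcy9, a broadly expressed cyclase, and Adcy1, a calcium-stimulated one known mainly from the brain. Adcy9 rose from 4.59 ± 1.31 to 22.9 ± 5.66 CPM (SD, n = 3 each), a log2 fold change of 2.31 with an SE of 0.28 (edgeR adjusted p = 0.00224). It was the only cyclase past the test with the coding and 3' UTR trend removed, at 2.30 (edgeR adjusted p = 0.00427). Adcy1 rose from 1.61 ± 0.599 to 5.87 ± 1.59 CPM (SD, n = 3 each; log2 fold change 1.87, edgeR adjusted p = 0.00981). Adcy3 differed by 0.68 and did not pass (edgeR adjusted p = 0.0906).

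Summed cyclase FPKM was 31.9, 30.3 and 31.6 with anti-IgG and 57.9, 57.2 and 49.4 with anti-PD-1, so all 3 anti-PD-1 libraries were above all anti-IgG libraries. Among single tested genes 20.2% separated in this way by CPM, and no length trend was removed from the cyclase sum. Adcy6 made up 34.6%, 28.9% and 28.01% of that sum with anti-IgG and 32.3%, 37.3% and 28.2% with anti-PD-1, and Adcy5 22.8%, 17.5% and 25.9% against 26.5%, 31.9% and 25.2%. The shares of these 2 genes overlapped between the groups. The share of Adcy9 did not, at 1.86% to 3.27% against 6.11% to 8.44%, nor did that of Adcy4, at 23.6% to 27.7% against 12.9% to 17.4%. The level of Adcy4 itself did not pass the test, with 39.3 ± 2.81 and 41.4 ± 6.98 CPM (SD, n = 3 each; log2 difference 0.08, edgeR adjusted p = 0.790), so its lower share came with the larger sum.

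Of 9 protein kinase A subunits and inhibitors, 3 rose and 1 fell, beside 10.3% and 10.8% of all tested genes. Prkar2a, the regulatory subunit that anchoring proteins hold, rose from 90.2 ± 10.3 to 181 ± 21.2 CPM (SD, n = 3 each), a log2 fold change of 1.01 with an SE of 0.18 (edgeR adjusted p = 0.00767). The inhibitor gene Pkia rose from 152 ± 52.2 to 351 ± 86.8 CPM (log2 fold change 1.21, edgeR adjusted p = 0.0144), and its relative Pkig fell from 115 ± 22.5 to 62.7 ± 9.34 CPM (log2 fold change -0.87, edgeR adjusted p = 0.0151; SD, n = 3 each). The 2 inhibitor genes thus changed in opposite directions. Prkar2a and Pkia still passed with the coding and 3' UTR trend removed, at 0.70 and 1.52 (edgeR adjusted p = 0.0354 and 0.0211), and Pkig did not, at -0.01. Prkar1a, named after its value was seen, rose by 0.61 (edgeR adjusted p = 0.0495).

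Of 13 tested anchoring proteins, which hold the kinase near its targets, 6 rose and 1 fell, beside 10.3% and 10.8% of all tested genes. With the gene length trend removed 1 rose and 1 fell, beside 5.17% and 5.13%. With the coding and 3' UTR trend removed 0 rose and 2 fell, beside 2.96% and 2.71%. These 2 were Akap5 and Akap8, named after their values were seen (log2 -1.49 and -0.94, edgeR adjusted p = 0.0295 and 0.0307). Akap13, Akap11 and Cmya5 rose by 0.92, 0.99 and 1.19 on the log2 scale (edgeR adjusted p = 0.00805, 0.00890 and 0.0124), and their values were -0.04, 0.18 and 0.76 with the coding and 3' UTR trend removed, none past the test. Of 17 tested phosphodiesterases 7 rose and 1 fell, beside 10.3% and 10.8% of all tested genes, and their median was 0.48. With the coding and 3' UTR trend removed 0 rose and 0 fell, beside 2.96% and 2.71% of all tested genes. The median was then -0.05. Beside Pde3a and Pde4d, the calcium-dependent Pde1c rose by 0.87, Pde4a by 0.82 and Pde7b by 1.04 (edgeR adjusted p = 0.0171, 0.0155 and 0.0176). Pde1a and Pde5a also rose and Pde4c fell, and these were named after their values were seen.

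Summed phosphodiesterase FPKM was 42.1, 39.4 and 37.0 with anti-IgG and 56.6, 55.6 and 52.6 with anti-PD-1, again without overlap and with no length trend removed. With the coding and 3' UTR trend removed the single phosphodiesterases had a median log2 fold change of -0.05, and 0 passed. Pde3a made up 16.7%, 9.53% and 12.02% of the summed FPKM with anti-IgG and 14.4%, 17.1% and 14.9% with anti-PD-1. Pde4b made up 7.22%, 7.11% and 8.46% against 7.35%, 4.39% and 7.74%. Pde4d made up 1.84%, 1.42% and 1.53% against 2.87%, 2.69% and 1.87%, the only 1 of the 3 whose shares did not overlap between the groups.

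**Figure D3:**
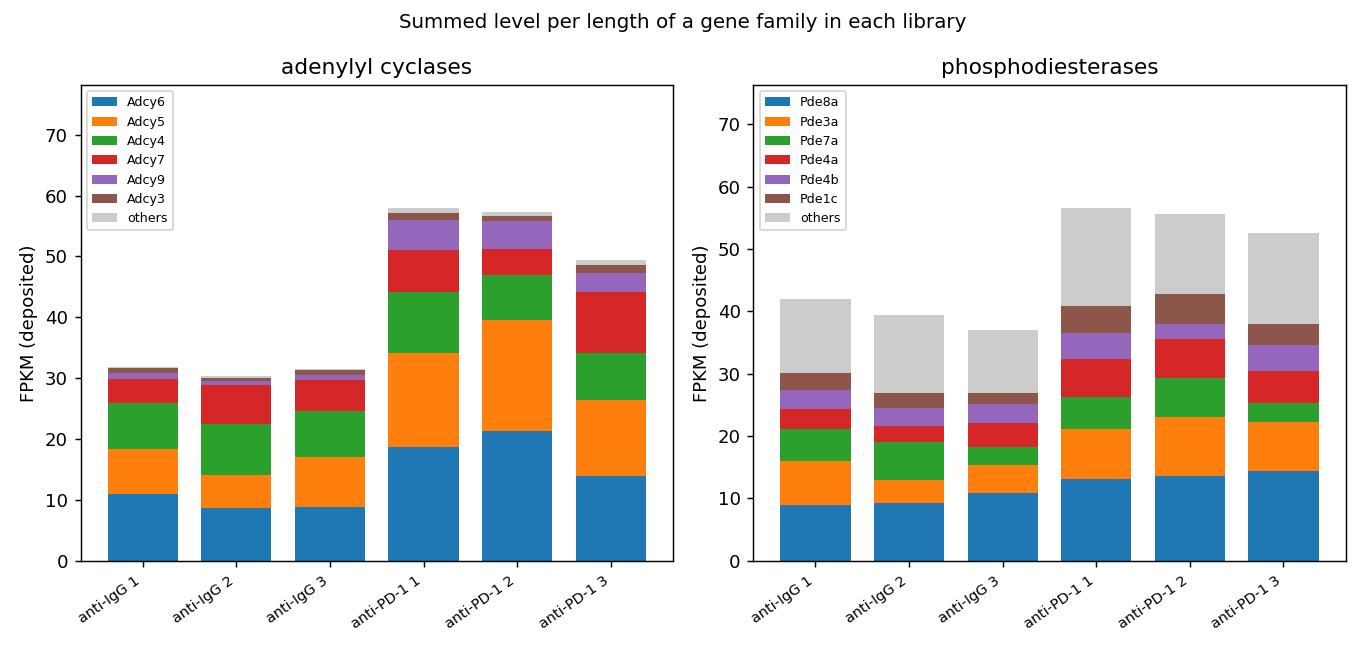
Deposited FPKM (vertical axis) summed over the adenylyl cyclases (left) and the phosphodiesterases (right) in each of the 6 libraries, with coloured blocks for the most abundant genes and grey for the others. The cyclase sums are 30.3 to 31.9 with anti-IgG and 49.4 to 57.9 with anti-PD-1, and the phosphodiesterase sums 37.0 to 42.1 and 52.6 to 56.6. No length trend was removed from the sums.

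Downstream, 0 of 12 other cyclic AMP effectors and CREB family genes passed, beside 21.1% of all tested genes. Among the 12 were Creb1 at 0.29 and Atf1 at 0.75 (edgeR adjusted p = 0.234 and 0.0638). Popdc3, a cyclic AMP-binding membrane protein, differed by 0.33 and did not pass (edgeR adjusted p = 0.248), though it did with the coding and 3' UTR trend removed, at 0.81 (edgeR adjusted p = 0.0360). Among 17 kinase substrates and phosphatases of the myocyte 3 rose and 2 fell, beside 10.3% and 10.8% of all tested genes. Ryr2, the calcium release channel, rose from 518 ± 94.8 to 1359 ± 238 CPM (SD, n = 3 each; log2 fold change 1.39, edgeR adjusted p = 0.00644), and Ppp1r3a, a phosphatase subunit, by 1.40 (edgeR adjusted p = 0.00879). Fxyd1, phospholemman, the regulator of the sodium pump, changed by -1.53 (edgeR adjusted p = 0.0143). None of these 3 passed with the coding and 3' UTR trend removed, at 0.62, 0.76 and -0.51.

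**Figure D4:**
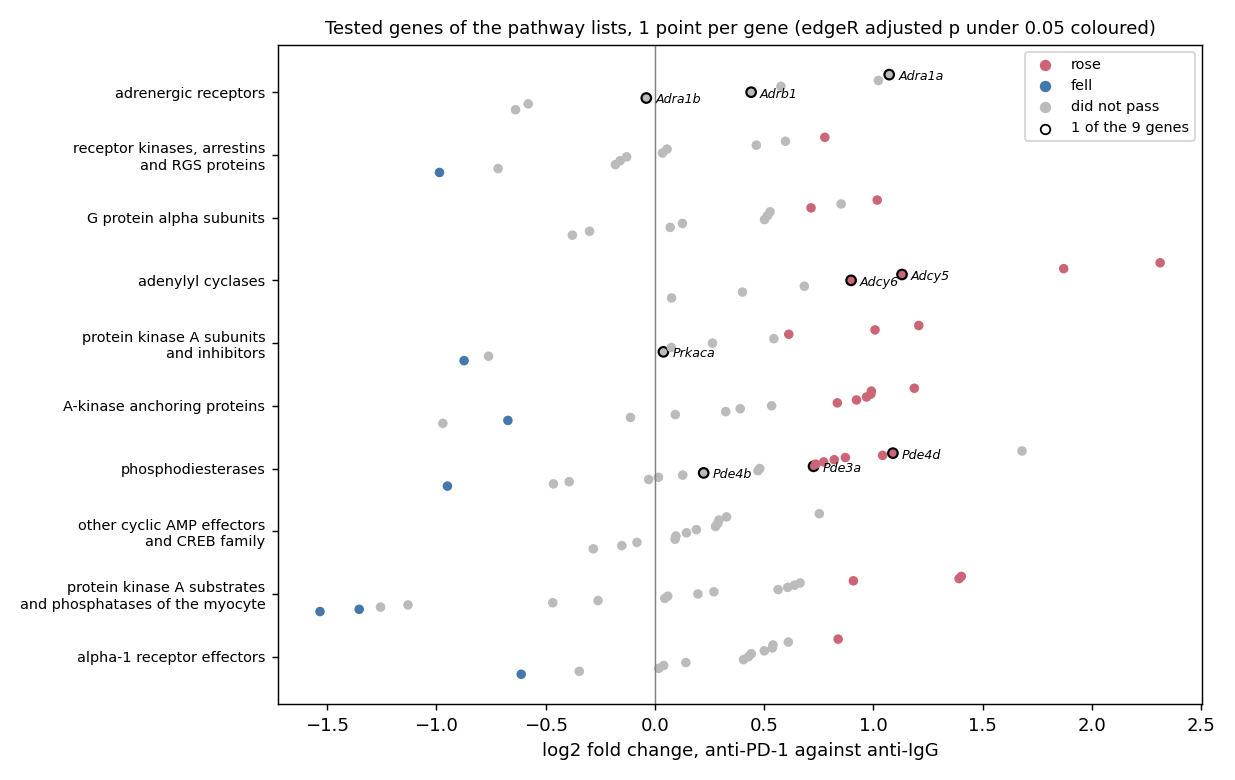
Log2 fold change of anti-PD-1 against anti-IgG (horizontal axis) for the 115 tested genes of the 10 pathway lists (1 row each), coloured by whether the edgeR adjusted p was under 0.05. Without a length correction, as plotted, the cyclases have the highest median, 0.90. The receptors and the other cyclic AMP effectors have 0 genes past the threshold, beside 21.1% of all tested genes past it.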

How the data were processed

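The authors deposited whole-number read counts per gene for the 6 libraries; the submitters' processing notes list featureCounts and the mm10 build with no version, and neither aligner nor strand setting is given in the sources used here. The FPKM deposited by the authors equal the count divided by their gene length and by 1 constant per library, 0.953 to 1.15 times its summed counts, a scaling whose basis is not stated. Gene lengths, another deposited value of the authors, are in bp. Library preparation used a NEBNext Ultra kit, per the labels' protocols.

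Rows without a gene name (397 of 54929), which have identifiers and loci of their own, were tested like the others. Counts were fitted in R 4.3.3 with edgeR 4.0.16 (filterByExpr, TMM scaling, quasi-likelihood F test with robust=TRUE, 2-sided), with Benjamini-Hochberg adjustment over all 14807 tested genes and a threshold of 0.05. CPM are TMM-scaled, and each SE was computed as the log2 fold change over the root of its F statistic. The exact permutation test of 3 against 3 libraries cannot go below p = 0.1 and was not used. Libraries of 1 group differed by far more than counting error, with a chi-square per degree of freedom of 42.6 to 68.5, so each was counted as labelled. Coding and 3' UTR lengths are from the GENCODE M21 annotation, and the length trends were fitted per library on log2 CPM (prior count 2, natural splines of 5 degrees of freedom) and entered as an offset. The fit was tested on simulated data.

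Named were the 9 members, in each pathway list the 3 other tested genes with the smallest unadjusted p, and for each member the gene with the highest Pearson r. The genes compared for r had a mean log2 CPM of at least 1. Unnamed, mitochondrially encoded, predicted and clone-type symbols were left out of them. Some list genes are not reported here. The members and lists were chosen with earlier results of these data known. Alternatives were RLE and upper quartile scaling, no filter or at least 1 CPM in 3 libraries, DESeq2 1.42.0, limma 3.58.1 (voom, and trend on log2(FPKM + 1) and log2(FPKM + 0.1)), robust=FALSE, the replicate number as a block, the length trends, mitochondrially encoded and haemoglobin genes left out, and each library left out in turn. Levels per coding plus 3' UTR length were added after the data were seen.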

Additional observations from a re-analysis of the deposited data

How the results depend on the processing

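Against 3118 genes and 4 members called, 1526 genes were called with the gene length trend removed, 840 genes and 0 members with the coding and 3' UTR trend removed, and 1466 genes and 1 member with the replicate block and the gene length trend together. With each library left out in turn, 532 to 3646 genes and 0 to 4 members were called, the fewest without anti-IgG library 2, and the log2 value was -0.47 to 1.54 for Adra1a, -0.26 to 0.092 for Adra1b and -0.078 to 0.22 for Prkaca. With 1 fewer library a fit has fewer samples. The sign turned for Prkaca with upper quartile scaling (-0.054), and with the coding and 3' UTR trend removed for Pde3a (-0.047), Pde4b (-0.085), Akap13 (-0.036) and Creb1 (-0.070). It turned with the gene length trend removed for Adra1b (0.070), Pde4b (-0.16) and Creb1 (-0.14), and with the block beside it for Adra1b (0.045), Pde4b (-0.18) and Creb1 (-0.14). The cause was not tested. Pde3a was not called with upper quartile scaling or robust=FALSE (edgeR adjusted p = 0.063 and 0.0512), nor in 2 limma fits of FPKM. Of the members' other values outside the left-out libraries, 113 kept their direction and side of the threshold, 12 lost the call and 1 gained it. Libraries with the same replicate number did not deviate together (r = 0.12, -0.14 and 0.21), and the replicate block called 3367 genes and 4 members. Depth was lowest for Adra1a, with 50 to 418 reads per library.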
